A study of Mus musculus with 6 samples.

Results

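The genes described here encode the LINC complex and proteins of the inner nuclear membrane and were measured as RNA in whole quadriceps femoris, a thigh muscle. They are the 10 genes Sun1, Sun2, Syne1, Syne2, Syne3, Emd, Tmpo, Lemd2, Tor1aip1 and Tmem43, taken by symbol from a table of 22036 genes, and each symbol matched 1 row. Prr14-KO mice gave 3 libraries and Prr14-WT mice gave 3, with genotype as the only labelled difference. The sources used here give no strain, age or knockout method, and the labels do not say whether the libraries of a genotype come from separate animals, so a p-value here rests on library-to-library spread, which may be technical. PRR14 ties heterochromatin to the nuclear lamina, and the series title names mechanotransduction, the conversion of force into a cell response.

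The LINC complex spans the nuclear envelope. SUN proteins sit in the inner nuclear membrane and bind lamins on their nuclear side, and in the space between the membranes they hold the KASH ends of nesprins, which cross the outer membrane and bind actin, intermediate filaments or microtubule motors in the cytoplasm. In muscle fibres the complex anchors and spaces the many nuclei, and emerin, LAP1, LAP2 and LUMA are inner membrane proteins whose human genes are linked to muscle or heart disease.

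Of the 10 genes, 8 passed the filter on low counts and were tested, and 0 of these 8 passed the test between genotypes, an adjusted p under 0.05 in edgeR over 6680 tested genes, where 6.26% of all tested genes passed. DESeq2 and limma-voom also passed 0 of them, as did the edgeR fit with any 1 library left out. Other settings differed. Emd passed with library totals and with library sizes taken without the 20 most abundant genes. With no filter on low counts, Emd and Syne2 passed. Without adjustment, 3 of the 8 had an edgeR p under 0.05 (Emd, Syne2 and Tor1aip1), as did 1333 of the 6680 tested genes (20%). Levels are given as CPM with TMM-adjusted library sizes, and the CPM of the genotypes did not overlap for 4 of the 8: Emd and Sun1 lay above WT in every KO library, and Syne2 and Tor1aip1 below. The TMM factors were 1.06 to 1.11 in KO and 0.862 to 0.97 in WT. This scaling lowers KO levels against WT, and the unscaled counts of Tor1aip1 overlapped. Over all tested genes the CPM did not overlap for 25.8%. The log2 fold changes, KO over WT, were positive for 5 of the 8 and negative for 3, with a median of 0.19 against 0.02 over all tested genes.

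The libraries held between 1488684 and 1678288 counts in KO and between 1436099 and 1712975 in WT. Prr14 itself had 4, 10 and 3 counts in KO replicates 1 to 3 and 9, 11 and 12 in WT replicates 1 to 3, so the library labelled KO replicate 2 stood close to WT for the targeted gene. With an edgeR adjusted p of 0.196 the difference in Prr14 did not pass (log2 fold change -1.10, SE 0.46). The value was -1.80 (adjusted p = 0.08) without that library and -0.77 (0.447) without KO replicate 3. Which exons the knockout removes is unknown here, and reads from other exons do not check a label. Muscle markers were abundant in every library. The 6 myofibre genes summed to 106161 to 118597 CPM in KO and 136650 to 177629 CPM in WT. Of the 6, 2 passed as lower (Acta1 and Mylpf), against 3.28% of all tested genes. The log2 fold changes of Ckm (-0.25), Tnnt3 (-0.39), Actn3 (-0.12) and Des (0.45) did not pass. In TMM-scaled CPM, 4 of the 6 (Acta1, Mylpf, Ckm and Tnnt3) lay below WT in every KO library, as did 12.2% of all tested genes. The unscaled counts of Ckm and Tnnt3 overlapped. The 20 most abundant genes together held on average 35.4% of counts in KO and 41.6% in WT. In whole muscle, fewer cells of a type and less RNA per cell cannot be told apart.

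**Figure D1:**
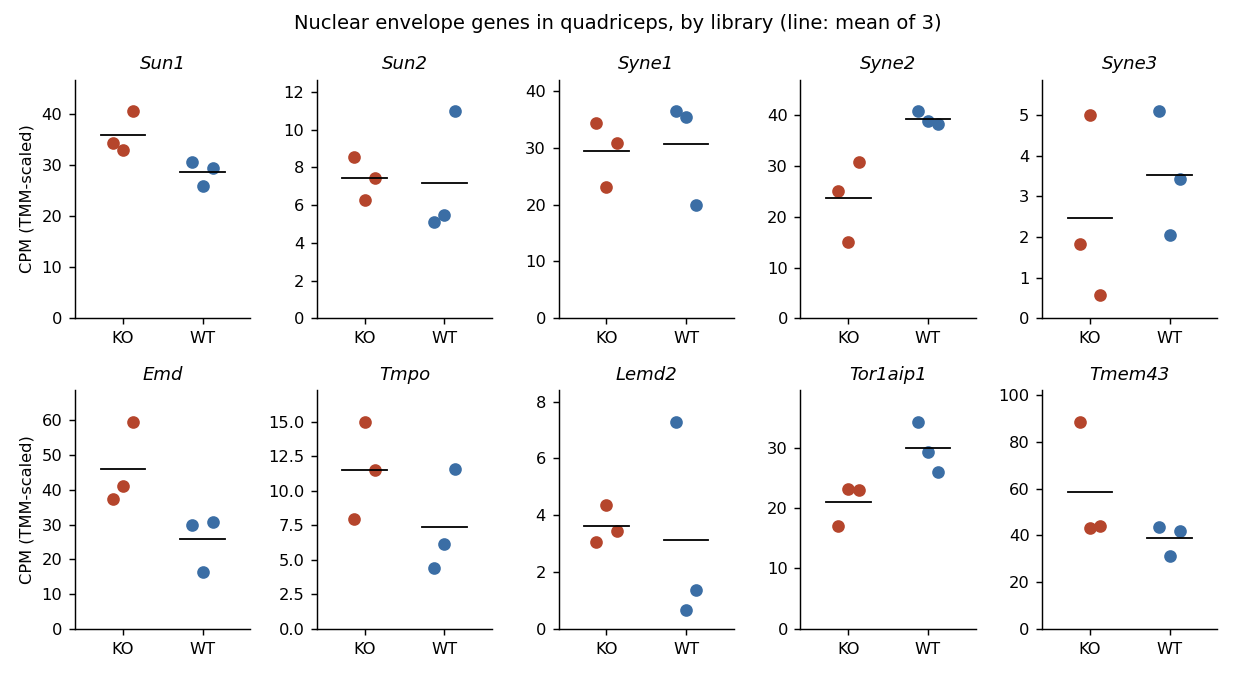
TMM-scaled CPM (vertical axes, each from 0 with its own range) of the 10 genes in 3 KO and 3 WT libraries. Each point is 1 library and each line the mean of 3. The KO points lie above all WT points for Sun1 and Emd and below all WT points for Syne2 and Tor1aip1, and the genotypes overlap for the other 6 genes.

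The sequences before the starts of 3 members are shown because Emd and Sun1 were the members whose CPM lay above WT in every KO library, and Sun2 is the counterpart of Sun1 that overlapped. Each is the 250 bases before the outermost RefSeq start on GRCm38.p6, 5′ to 3′ on the gene's strand. Capitals mark GC boxes (GGGCGG) and CCAAT boxes (CCAAT) on either strand. The Emd window is chrX:74254437-74254686 (plus strand), that of Sun1 is chr5:139200387-139200636 (plus strand), and that of Sun2 is chr15:79742537-79742786 (minus strand).
Emd: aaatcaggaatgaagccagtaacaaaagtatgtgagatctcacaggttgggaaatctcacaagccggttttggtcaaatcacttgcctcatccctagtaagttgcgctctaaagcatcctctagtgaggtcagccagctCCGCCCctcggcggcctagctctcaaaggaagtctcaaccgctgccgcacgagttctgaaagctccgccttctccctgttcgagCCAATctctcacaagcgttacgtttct
Sun1: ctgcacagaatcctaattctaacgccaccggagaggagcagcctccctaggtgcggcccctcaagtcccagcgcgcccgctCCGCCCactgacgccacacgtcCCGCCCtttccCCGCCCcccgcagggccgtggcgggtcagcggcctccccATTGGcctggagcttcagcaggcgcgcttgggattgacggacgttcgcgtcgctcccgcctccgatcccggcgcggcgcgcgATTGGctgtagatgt
Sun2: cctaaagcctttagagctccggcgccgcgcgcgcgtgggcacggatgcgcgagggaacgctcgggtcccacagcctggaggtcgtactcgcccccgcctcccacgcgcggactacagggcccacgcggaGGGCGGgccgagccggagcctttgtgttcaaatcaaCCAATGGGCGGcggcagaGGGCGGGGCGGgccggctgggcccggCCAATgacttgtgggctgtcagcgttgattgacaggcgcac
The Emd window had a GC content of 51.2% with 12 CpG, and it held 1 GC box and 1 CCAAT box. The windows of Sun1 and Sun2 were alike in composition, with 70% GC and 30 CpG for Sun1 and 70.8% GC and 31 CpG for Sun2. Sun1 held 3 GC boxes and 2 CCAAT boxes, and Sun2 held 4 and 2. The median over 32851 windows of 27025 genes was 52.4% GC and 6 CpG.

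RefSeq windows were held for 9 of the 10 members, 14 windows in all, since Syne1 has 3 starts and Sun1, Tmpo and Tor1aip1 have more than 1. Of the 14 windows, 7 held a GC box, against 32.7% of all windows, and 5 held a CCAAT box, against 33.8%. The E-box (CANNTG), the binding site of myogenic factors, was in 10 of 14, against 66.2% of all windows, and the TATA box (TATAAA) in 2 of 14, against 12.4%. The MEF2 site, searched because the series title names MEF2C, and the CArG box of SRF were in 0 of the 14, against 2.92% and 1.47% of all windows. Both strands were searched, each motif was counted separately, and neighbouring motifs can share letters. A match is a description of letters and not of binding.

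Sun1 and Sun2 encode the SUN proteins, the inner membrane side of the complex. Sun1 (GRCm38 chromosome 5, 139200637 to 139249840, plus strand) had 34.3, 33.1 and 40.7 CPM in KO replicates 1 to 3 and 30.6, 25.9 and 29.4 CPM in WT replicates 1 to 3. The KO libraries lay just above the WT libraries, the nearest pair being 33.1 and 30.6 CPM. The means were 36.0 ± 4.08 CPM in KO and 28.7 ± 2.47 CPM in WT (SD, n = 3 each), a log2 fold change of 0.33 (SE 0.20, 95% interval -0.09 to 0.76, edgeR adjusted p = 0.397). The interval allows a fold of 0.937 to 1.69. Antisense genes cover 302 bases of Sun1 exons and 147 bases of Sun2 exons, and without stated use of strand their reads cannot be told apart.

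Sun2 (chromosome 15, 79724070 to 79742536, minus strand) was read at a low level, with 14, 10 and 13 counts in KO and 7, 8 and 16 counts in WT. Its CPM were 8.57, 6.25 and 7.45 in KO and 5.11, 5.45 and 11.0 in WT, so the genotypes overlapped fully. The log2 fold change was 0.04 ± 0.38 (SE, adjusted p = 0.971 in edgeR). Its 95% interval from -0.77 to 0.86 is wide and allows a fold of 0.585 to 1.82. The sign of the log2 fold change turned negative without KO replicate 1 (-0.07), WT replicate 1 (-0.17) or WT replicate 2 (-0.15).

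As a share of the SUN reads, which no scaling of libraries can alter, Sun1 made up 80%, 84.1% and 84.5% in KO and 85.7%, 82.6% and 72.9% in WT. These shares overlapped. The means were 82.9 ± 2.51% in KO and 80.4 ± 6.7% in WT (SD, n = 3 each, exact two-sided permutation p = 0.7, where 0.1 is the smallest that 3 against 3 libraries allow). The other SUN and KASH genes on a list of 6 (Sun3, Sun5, Spag4, Syne4, Kash5 and Irag2) were all below the filter, and Sun3 and Sun5, known from testis, had no read in any library.

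The nesprins Syne1, Syne2 and Syne3 form the outer side of the complex. Syne1 encodes nesprin-1, the form enriched at the nuclei under the neuromuscular synapse, and Syne2 encodes nesprin-2. Both genes make giant proteins and shorter forms that keep only part of the chain, and the deposited counts are per gene, so the forms are not told apart here. The annotation lists 5 protein-coding transcripts of Syne1 of 2726 to 27908 bases and 10 of Syne2 of 440 to 21704 bases.

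Syne2 (chromosome 12, 75818134 to 76110926, plus strand) had 41, 24 and 54 counts in KO replicates 1 to 3 and 56, 57 and 56 counts in WT replicates 1 to 3. Scaled, these were 25.1, 15 and 30.9 CPM in KO and 40.9, 38.8 and 38.3 CPM in WT. All 3 KO libraries lay below all 3 WT libraries, the WT libraries were close together, and KO replicate 2 was the lowest. The means were 23.7 ± 8.07 CPM in KO and 39.3 ± 1.33 CPM in WT (SD, n = 3 each). This is a log2 fold change of -0.72 (SE 0.24, 95% interval -1.24 to -0.21), which did not pass over all genes (edgeR adjusted p = 0.0971).

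The Syne2 result depended on the filter and on the libraries. With no filter on low counts it passed as lower in KO (-0.73, edgeR adjusted p = 0.031), a setting in which 4.94% of 14292 genes passed. The adjusted p otherwise lay between 0.0533 and 0.271. Without KO replicate 2 the log2 fold change was -0.49, at an edgeR adjusted p of 0.234, and it was also -0.49 (0.212) when libraries were scaled by their totals alone. Among the 83 tested genes whose longest annotated transcript exceeds 12000 bases, Syne1 and Syne2 included, the median log2 fold change was -0.14, with 0 genes passing as higher and 6 as lower, against 0.02, 199 and 213 among the 6597 other genes. Whether transcript length has a part in the Syne2 value was not tested.

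Syne1 (chromosome 10, 5020917 to 5551482, minus strand) had 34.3, 23.1 and 30.9 CPM in KO and 36.5, 35.4 and 19.9 CPM in WT. The genotypes overlapped, with the lowest value of all in WT replicate 3. The log2 fold change was -0.05 (SE 0.25, 95% interval -0.59 to 0.49, edgeR adjusted p = 0.944), and its sign turned positive with library totals (0.17), with library sizes taken without the 20 most abundant genes (0.04), and without KO replicate 2 (0.09), WT replicate 1 (0.07) or WT replicate 2 (0.05).

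Syne3 (chromosome 12, 104929933 to 105009809, minus strand) encodes nesprin-3, which binds plectin and through it intermediate filaments. It had 3, 8 and 1 counts in KO and 7, 3 and 5 counts in WT and was removed by the filter on low counts. Its level was 2.47 ± 2.28 CPM in KO and 3.52 ± 1.53 CPM in WT (SD, n = 3 each, exact permutation p = 0.5), and an unfiltered fit gave -0.52 on the log2 scale (edgeR adjusted p = 0.747). Between 1.72 and 2.19 CPM correspond to 3 counts in a library, so this gene stood near the limit of detection.

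Within the nesprin reads, the share of Syne1 was higher in each KO library than in any WT library. It was 56% (95% Wilson interval 46.2 to 65.3), 53.6% (42 to 64.9) and 49.5% (40.3 to 58.8) in KO replicates 1 to 3, from 100, 69 and 109 reads. In WT replicates 1 to 3 it was 44.2% (35.4 to 53.4), 46.4% (37.5 to 55.6) and 32.2% (23.5 to 42.4), from 113, 112 and 90 reads. The nearest pair of libraries was 49.5% in KO and 46.4% in WT, and most single-library intervals overlap across genotypes. The means were 53.1 ± 3.27% in KO and 41 ± 7.65% in WT, a difference of 12.1 percentage points (SD, n = 3 each, exact permutation p = 0.1, two-sided). Without WT replicate 3, which had the lowest share, the difference was 7.72 points. The level of Syne1 itself did not separate the genotypes. The share carries the same Syne2 reads as the comparison above and is no separate evidence. Syne1 reads entered the gap too. WT replicate 3 had 29 Syne1 reads, against 50 and 52 in WT replicates 1 and 2, and its Syne2 count was like theirs.

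**Figure D2:**
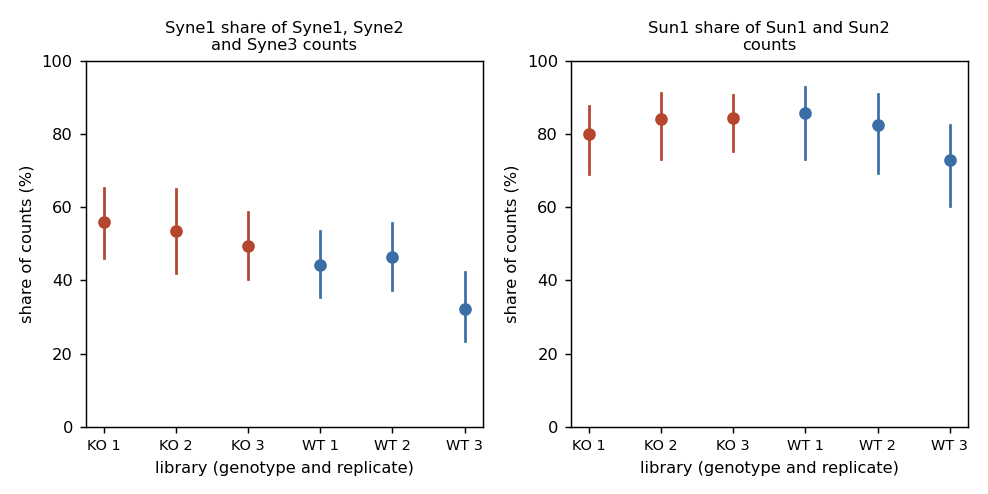
Share of nesprin reads from Syne1 (left) and of SUN reads from Sun1 (right), in percent of counts, for each KO and WT library. Points are libraries and vertical lines are 95% Wilson intervals, which cover counting error only. For Syne1 the KO libraries sit between 49.5% and 56% and the WT libraries between 32.2% and 46.4%. For Sun1 the genotypes overlap.

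Emd, Tmpo and Lemd2 encode proteins with a LEM domain, which binds the chromatin protein BAF. Emd encodes emerin, an inner membrane protein that binds lamins and nesprins, and loss of human emerin causes Emery-Dreifuss muscular dystrophy. Emd (chromosome X, 74254687 to 74261548, plus strand) had 61, 66 and 104 counts in KO replicates 1 to 3 and 41, 24 and 45 counts in WT replicates 1 to 3. Its levels were 37.3, 41.2 and 59.6 CPM in KO and 29.9, 16.4 and 30.8 CPM in WT. All 3 KO libraries lay above all 3 WT libraries, with KO replicate 3 the highest and WT replicate 2 the lowest.

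Emd averaged 46.0 ± 11.9 CPM in KO and 25.7 ± 8.10 CPM in WT (SD, n = 3 each). This gave a log2 fold change of 0.85 (SE 0.26, 95% interval 0.29 to 1.40, a fold of 1.80), which did not pass over all genes (edgeR adjusted p = 0.0701). It passed as higher in KO with no filter (0.84, edgeR adjusted p = 0.00462), where 4.94% of 14292 genes passed. It also passed with library totals (1.08, 0.0141), where 12.0% of genes passed and the median of all genes was 0.251. It passed too with library sizes taken without the 20 most abundant genes (0.93, 0.0454). In that setting 473 of 6706 genes passed and the median of all genes was 0.101. The Emd value was 0.61 (edgeR adjusted p = 0.252) without KO replicate 3, 0.57 (0.311) without WT replicate 2 and 0.92 (0.0909) without KO replicate 2. Emd is X-linked and the sex of the mice is not labelled; the Y-linked gene Ddx3y had 105 to 137 counts in the KO libraries and 82 to 97 in the WT libraries, so Y-linked reads were present in all 6. The annotation places a processed pseudogene, Gm14686, on 343 bases of Emd exons, and the sources do not say how the authors' counting treated such reads.

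Tmpo (chromosome 10, 91147571 to 91181315, minus strand) encodes LAP2, whose membrane forms bind lamin B and whose alpha form binds A-type lamins inside the nucleus. It had 7.95, 15 and 11.5 CPM in KO and 4.38, 6.13 and 11.6 CPM in WT, with WT replicate 3 inside the KO range. The difference gave a log2 fold change of 0.62 (SE 0.39, 95% interval -0.21 to 1.45, edgeR adjusted p = 0.424), and it ranged from 0.33 without WT replicate 1 to 1.10 without WT replicate 3, with no setting passing.

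Lemd2 (chromosome 17, 27189600 to 27204469, minus strand) encodes LEM2, an inner membrane protein that acts in sealing the envelope after mitosis. With 5, 7 and 6 counts in KO and 10, 1 and 2 counts in WT it was removed by the filter on low counts. WT replicate 1 held the highest and WT replicate 2 the lowest value of the 6. The level was 3.62 ± 0.676 CPM in KO and 3.12 ± 3.64 CPM in WT (SD, n = 3 each, exact two-sided permutation p = 1), so no difference was detectable at this depth, and an unfiltered fit gave 0.24 on the log2 scale (edgeR adjusted p = 0.905).

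Tor1aip1 encodes LAP1, an inner membrane protein that binds lamins and emerin and activates the ATPase torsinA, and its loss in human causes a muscular dystrophy. It is on chromosome 1, 156004599 to 156036480, minus strand. Its levels were 17.1, 23.1 and 22.9 CPM in KO replicates 1 to 3 and 34.3, 29.3 and 26.0 CPM in WT replicates 1 to 3. In these TMM-scaled CPM the KO libraries all lay below the WT libraries, the nearest pair being 23.1 and 26.0 CPM. The separation rests on the scaling. Unscaled counts were 28, 37 and 40 in KO and 47, 43 and 38 in WT, so they overlapped. WT replicate 3, with 38 counts, had a larger library total (1712975) than KO replicate 3, with 40 (1678288). The means were 21.1 ± 3.40 CPM in KO and 29.9 ± 4.17 CPM in WT (SD, n = 3 each), a log2 fold change of -0.50 (SE 0.22, 95% interval -0.97 to -0.03, edgeR adjusted p = 0.223). No alternative setting passed, and with library totals the value was -0.27.

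Tor1aip1 starts inside its neighbour on the opposite strand, Tor1aip2 (chromosome 1, 156035403 to 156068861, plus strand), which encodes LULL1, a related torsin activator of the endoplasmic reticulum. The annotated exons of this pair share 699 bases, and without stated use of strand, reads over them cannot be assigned with certainty. Tor1aip2 had 40.4, 29.4 and 20.6 CPM in KO and 46.7, 42.3 and 44.5 CPM in WT, so after TMM scaling it too lay below WT in every KO library. Its unscaled counts overlapped, at 66, 47 and 36 in KO and 64, 62 and 65 in WT. KO replicate 1 (66 counts) had a smaller library total than WT replicate 3 (65 counts). Its log2 fold change was -0.56 ± 0.23 (SE; adjusted p = 0.181 in edgeR), and it depended on single libraries. It passed without KO replicate 1 (-0.83, 0.0424) and was -0.35 (0.438) without KO replicate 3, and with library totals it was -0.33 (0.41). Of the 6 torsins and partners listed, 3 could be tested and 0 passed.

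Tmem43 encodes LUMA, an inner membrane protein that binds emerin and lamins and is linked to arrhythmogenic cardiomyopathy in human. It is on chromosome 6, 91473703 to 91488463, plus strand. Its levels were 88.7, 43.1 and 44.1 CPM in KO replicates 1 to 3 and 43.8, 31.4 and 41.8 CPM in WT replicates 1 to 3. KO replicate 1 stood far above all others, and the remaining KO libraries were close to the highest WT library. Its log2 fold change was 0.59 (SE 0.29, 95% interval -0.05 to 1.23, edgeR adjusted p = 0.293), and without KO replicate 1 it was 0.17 (0.756).

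**Figure D3:**
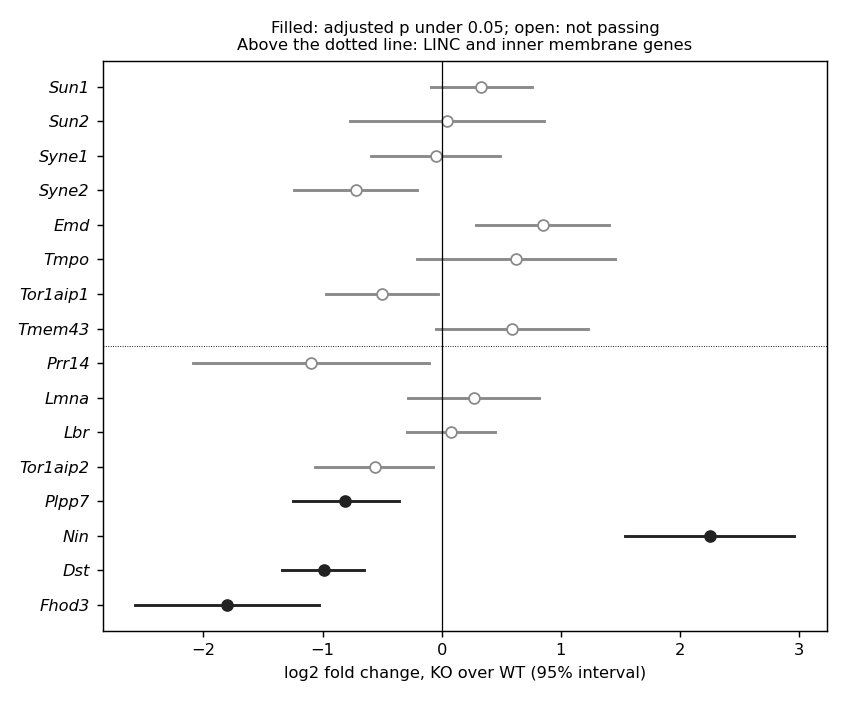
Log2 fold change, KO over WT (horizontal axis), with 95% intervals from the edgeR fit, for the 8 tested LINC and inner membrane genes (above the dotted line) and for Prr14 and selected envelope-linked genes (below it). Filled points passed an adjusted p of 0.05: Plpp7, Dst and Fhod3 lower and Nin higher. All 8 points above the line are open.

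Beyond these members, 8 lists held 70 other genes of the nuclear envelope and its partners, of which 42 could be tested. Of these 42, 1 passed as higher in KO, 3 passed as lower and 38 did not pass, with a median log2 fold change of 0.08. Over all tested genes 2.98% passed as higher and 3.28% as lower. The members and these lists were chosen with earlier results of these data known, so setting their counts beside these shares is no test.

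Nin (chromosome 12, 70011435 to 70113717, minus strand) encodes ninein, a protein that anchors microtubules at the centrosome and, in muscle cells, at the nuclear envelope, which takes over as the microtubule organising site. Nin rose in KO. It had 29, 36 and 30 counts in KO replicates 1 to 3 and 4, 6 and 7 counts in WT replicates 1 to 3. Every KO library lay well above every WT library, at 19.1 ± 2.91 CPM in KO against 3.93 ± 0.947 CPM in WT (SD, n = 3 each). The log2 fold change was 2.25 ± 0.33 (SE; adjusted p = 0.000629 in edgeR), and it passed in all 15 alternative settings, with values of 2.06 to 2.49.

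The other motors and centrosomal proteins on that list did not pass: of 13 listed genes 10 were tested, 1 rose (Nin) and 9 did not pass. Akap6 and Pcm1, which nesprin-1 and its anchor recruit to the envelope of muscle nuclei, had log2 fold changes of 0.49 (edgeR adjusted p = 0.327) and 0.48 (0.263). Klc1, a kinesin light chain that links nesprins to the motor, had 0.64 (edgeR adjusted p = 0.184). The kinesin gene Kif5b, which moves nuclei along the fibre, had 0.10 (0.754). Of the 10 tested, 8 had a positive log2 fold change. The 2 negative ones were Akap9 at -0.22 (edgeR adjusted p = 0.491) and Cdk5rap2 at -0.32 (0.73).

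Of 5 listed cytoskeletal linkers and their relatives, 4 were tested: Dst and Fhod3 fell, and Plec and Macf1 did not pass. Dst (chromosome 1, 33908225 to 34308661, plus strand) encodes dystonin, a plakin that ties intermediate filaments to actin and microtubules. It had 67.3, 58.7 and 74.5 CPM in KO and 144, 145 and 111 CPM in WT. The KO libraries all lay below the WT libraries, with a log2 fold change of -0.99 ± 0.16 (SE; adjusted p = 0.00148 in edgeR). Dst is another gene with a longest transcript over 12000 bases, and an antisense transcript, Gm26788, covers 1037 bases of its exons; the part of either in its value was not tested.

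Fhod3 encodes a formin, an actin-assembling protein of striated muscle and a relative of the nesprin-2 partner FHOD1. It had 5, 9 and 8 counts in KO and 24, 16 and 27 counts in WT, or 4.42 ± 1.29 CPM in KO and 15.6 ± 4.12 CPM in WT (SD, n = 3 each). It fell by 1.80 on the log2 scale (SE 0.36, edgeR adjusted p = 0.00672), and the calls of Dst and Fhod3 were kept in all 15 alternative settings. Plec, which encodes plectin, the nesprin-3 partner, had a log2 fold change of -0.29 (edgeR adjusted p = 0.242), and Macf1, a relative of Dst, had 0.43 (0.397).

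Among 13 other inner nuclear membrane genes, 9 were tested, 1 fell and 8 did not pass. Plpp7 (chromosome 2, 32095528 to 32110820, plus strand), also called NET39, is a muscle-enriched inner membrane protein. It had 23.3, 23.7 and 17.8 CPM in KO and 40.9, 36.1 and 36.3 CPM in WT. The KO libraries all lay below the WT libraries, and the log2 fold change was -0.81 ± 0.21 (SE; adjusted p = 0.0332 in edgeR). The call was lost in 7 of 15 settings: with DESeq2 (adjusted p = 0.144), library totals (0.11) and library sizes without the 20 most abundant genes (0.0532), and without KO replicate 3 (0.118), WT replicate 1 (0.107), WT replicate 2 (0.077) or WT replicate 3 (0.0611). Its direction did not turn in any of them.

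Lbr, the lamin B receptor, had 41.0, 44.3 and 43.5 CPM in KO and 44.5, 40.2 and 37.7 CPM in WT, with a log2 fold change of 0.08 (SE 0.17, 95% interval -0.29 to 0.45, edgeR adjusted p = 0.866). Tmem38a, a channel of the reticulum and nuclear envelope in muscle, had -0.25 (edgeR adjusted p = 0.185), and Tmem120a had -0.67 (0.148). Wfs1 had 0.84 (edgeR adjusted p = 0.167), and it passed as higher with no filter (0.83, 0.00717) and without KO replicate 3 (1.10, 0.0403) but was 0.50 (0.38) without KO replicate 2. Lemd3, the gene for MAN1, had 6 counts in all KO libraries and 5 in all WT libraries and was not tested.

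The lamina, to which these proteins attach, showed 0 passing genes of 6 tested. Lmna, which encodes lamins A and C, had 25.7, 40.6 and 24.1 CPM in KO and 31.4, 19.8 and 24.0 CPM in WT. The genotypes overlapped, with a log2 fold change of 0.27 ± 0.26 (SE; adjusted p = 0.628 in edgeR) and of -0.01 without KO replicate 2, the library with the highest level. Lmnb1 had 0 counts in each KO library and 4, 1 and 2 in WT, and Lmnb2 had 5 counts in all in KO and 6 in WT, so both were below the filter. Cbx3, which encodes a heterochromatin protein, had the smallest p of the list, with a log2 fold change of 0.29 (edgeR adjusted p = 0.427), which was 0.12 (0.821) without WT replicate 1, 0.18 (0.694) without KO replicate 1 and 0.53 (0.0719) with library totals.

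Of the emerin partners in the nucleus, 4 of 6 were tested and 0 passed. Ctnnb1, which encodes beta-catenin, had the smallest p, at 344 ± 12.9 CPM in KO and 286 ± 24.4 CPM in WT (SD, n = 3 each). Its log2 fold change was 0.27 ± 0.11 (SE, adjusted p = 0.187 in edgeR). Ctnnb1 passed as higher with library totals (0.50, 0.018), where 12.0% of genes passed and the median over all genes was 0.251. Srf, the factor controlled by actin through MRTF, had -0.61 (edgeR adjusted p = 0.372).

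Nuclear pore genes, as another set of envelope genes, had 6 of 12 tested and 0 passing. Nup93, a scaffold nucleoporin, had the smallest p. It had 11.0, 9.37 and 13.7 CPM in KO and 5.11, 6.13 and 6.16 CPM in WT, which did not overlap. Its log2 fold change was 0.96 ± 0.33 (SE, adjusted p = 0.108 in edgeR). Nup93 passed as higher with library totals (1.2, 0.0313), where 12.0% of genes passed and the median over all genes was 0.251.

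**Figure D4:**
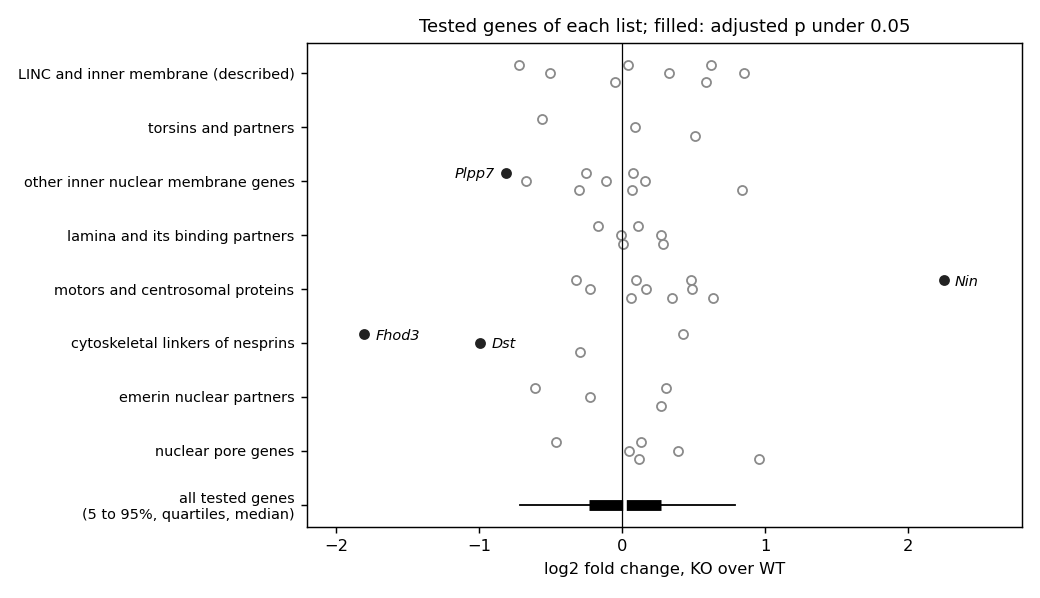
Log2 fold change, KO over WT (horizontal axis), of every tested gene of the LINC and inner membrane set and of 7 lists of associated genes. Each point is a gene, filled and named where the edgeR adjusted p was under 0.05, and the bottom bar shows the median, quartiles and 5 to 95% range (-0.71 to 0.79) over 6680 tested genes. Nin, Fhod3, Dst and Plpp7 are the filled points. Emd (0.85) and Syne2 (-0.72) lie just outside that range.

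No tested marker of the other cell types of muscle passed. All 4 satellite cell markers and 3 of the 6 macrophage and leukocyte markers were below the filter and not tested. The same held for 1 endothelial, 1 Schwann cell and 1 adipocyte marker. The summed level of 6 endothelial markers was 171 to 214 CPM in KO and 152 to 194 CPM in WT, and that of 6 macrophage and leukocyte markers was 137 to 150 CPM in KO and 112 to 387 CPM in WT. For 4 blood cell markers the sum was 1395 to 2008 CPM in KO and 1618 to 3987 CPM in WT. The 4 smooth muscle and pericyte markers summed to 689 to 833 CPM in KO and 686 to 743 CPM in WT. Of these 4, Acta2 and Myh11 lay above WT in every KO library, as did 13.5% of all tested genes. Their log2 fold changes were 0.36 and 0.30 (edgeR adjusted p = 0.231 and 0.306). The genotypes overlapped for Tagln (0.20) and Rgs5 (-0.06). Acta2 and Myh11 passed as higher with library totals (0.0301 and 0.0455), where 12.0% of genes passed and the median over all genes was 0.251. Satellite cell markers were near the limit of detection, at 6.3 to 9.79 CPM in KO and 1.37 to 8.76 CPM in WT for 4 genes. For 4 adipocyte markers the sum was 237 to 277 CPM in KO and 129 to 334 CPM in WT, and for 4 Schwann cell markers it was 56.9 to 80.6 CPM in KO and 52.7 to 123 CPM in WT. The 6 fibroblast markers summed to 1340 to 2124 CPM in KO and 1348 to 2166 CPM in WT. All listed endothelial, macrophage and fibroblast markers had at least 1 count, and the part of these cells and of smooth muscle in the values of Emd, Syne2, Tor1aip1 or Tmem43 was not tested.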

How the data were processed

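Total RNA from quadriceps femoris was made into full-length cDNA by template switching, amplified by PCR and read on a nanopore instrument, per the labels' protocols. The submitters' processing notes name minimap2, DESeq2 1.6.3 and the build GRCm38; no source used here names the counter, the annotation release or the use of strand. The authors deposited whole-number read counts per Ensembl gene, not normalized, and CPM on a larger library total. The deposited CPM were used only to find that total, of which 3.09 to 4.1% lay outside the listed genes. Identifiers of 22022 of 22036 genes were in the reference table; positions are from GENCODE M21 on GRCm38. Members were matched by symbol. The members and lists were chosen with earlier results of these data known.

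The whole table was fitted with edgeR 4.0.16 (R 4.3.3). Its filterByExpr function, given the genotypes, kept 6680 genes at its default minimum count of 10 and total of 15. After TMM scaling, KO was set against WT by the quasi-likelihood F test (robust fit), and p-values were adjusted by Benjamini-Hochberg with a threshold of 0.05. SE is the log2 fold change divided by the square root of F, and 95% intervals use the fit's t distribution. CPM printed in the text use TMM-scaled library sizes. Shares and untested genes have exact permutation tests over libraries, and Wilson intervals cover counting error only. These intervals treat each read as independent. As reads carry no molecular identifiers, PCR copies cannot be told apart and the intervals may be too narrow. Libraries of 1 genotype differed beyond sampling noise (chi-square divided by degrees of freedom, 2.19 to 5.35), so all 6 were kept as separate samples. The fit was tested on simulated data with the same dispersion for every gene. These simulated data did not model the difference in TMM factors between the genotypes, so they do not test the choice of scaling. Alternatives included DESeq2 1.42.0 and limma-voom 3.58.1. Named genes were the members, Prr14, Lmna, Lmnb1, Lmnb2, Lbr, Lemd3 and every passing gene of the lists. For lists with none, the gene with the smallest p was named. Akap6, Pcm1, Klc1, Kif5b, Akap9, Cdk5rap2, Plec, Macf1, Tmem38a, Wfs1, Tmem120a and Srf were named after their values were seen. So were Acta1, Mylpf, Ckm, Tnnt3, Actn3, Des, Acta2, Myh11, Tagln, Rgs5 and Ddx3y.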

Additional observations from a re-analysis of the deposited data

How the results depend on the processing

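For the 19 tested genes that the naming rule gave, 15 alternative settings gave 284 values (Prr14 fell below the filter in 1), of which 261 kept their direction and their side of the threshold, 7 of 5 genes newly passed, 7 of Plpp7 no longer passed and 9 of 3 genes turned sign; the cause was not tested. For 14 of the tested genes named after their values were seen, 206 of 210 values kept both and 4 newly passed (Acta2, Myh11 and Wfs1). Values of Ckm, Tnnt3, Actn3, Des, Tagln, Rgs5, Akap9 and Cdk5rap2 are not included. The count of passing genes over the whole table was 418, with 801 under library totals (653 higher and 148 lower, against 199 and 219, with a median over all genes of 0.251 in place of 0.017 on the log2 scale), 706 without a filter, and 237 to 363 with 1 library left out (273 without WT replicate 1 and 237 without WT replicate 2). The count of members passing was 0, with 1 under library totals (Emd), 1 with library sizes without the 20 most abundant genes (Emd), 2 without a filter (Emd and Syne2) and 0 with each library left out. Turned signs were Syne1 with library totals (0.17) and without the 20 most abundant genes (0.04); with 1 library left out Syne1 ranged from -0.29 to 0.09, Sun2 from -0.17 to 0.48 and Lmna from -0.01 to 0.43. With 1 library left out the Syne1 share of nesprin reads differed by 7.72 to 14.8 points and the Sun1 share by -1.28 to 5.14 points. No paired analysis was possible because the numbers in the sample titles coincide between the genotypes for only 1 pair of libraries and their meaning is not stated. At 1436099 to 1712975 counts a library, the main filter left out Syne3 and Lemd2.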
